A study of Mus musculus with 31 samples.

Results

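The retinas of 4 mice of genotype Rorb-/-;CrxpNrl were set against those of 4 Rorb-/- mice at postnatal day 14 (P14). These 8 arrays were chosen by their labels, out of 31 in the series. Both groups are labelled null for Rorb, which encodes a nuclear receptor of developing retinal cells. The first group also carries CrxpNrl, a transgene in which the promoter of Crx, a photoreceptor gene, drives Nrl. The comparison therefore reads the transgene within the Rorb-/- genotype. Both retinas of a mouse were pooled as 1 sample, and total RNA was hybridised to an Affymetrix mouse array of 45101 probe sets. Beside them stand 4 Rorb-/-;CrxpNrl and 4 Rorb-/- mice at postnatal day 28 (P28), 4 P14 +/+;CrxpNrl mice and 4 P14 +/+ mice (wild type). The labels give neither strain, nor the deleted part of Rorb, nor the number of transgene lines.

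Rods and cones are the light-sensing cells of the retina, and both arise from precursors that express Otx2 and Crx. Nrl, a leucine zipper transcription factor, directs such a precursor towards the rod fate, and without it cones form in place of rods. Rorb acts upstream of Nrl in the mouse, so a retina without Rorb makes photoreceptors that resemble cones. The Crx promoter is active in newborn photoreceptors of both kinds.

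Rod and cone genes moved in opposite directions with the transgene, and the promoters of the leading members are shown for that reason. Of the rod cascade genes Pde6b and Cnga1 rose most, and of the cone genes Opn1mw and Opn1sw, both visual pigments, fell most. Each window runs 5′ to 3′ on the gene's strand from 250 bases before to 50 bases after a transcript start, as RefSeq annotates it on GRCm38.p6. Capitals mark matches, on either strand, to 4 motifs: TGCTGA (the core of the element that Nrl and other Maf proteins bind), TAATCC (Crx and Otx2), AAGTCA (a variant nuclear receptor half-site) and AGGTCA (the half-site of many nuclear receptors, Rorb among them). The windows lie at chr5:108388123-108388422 on the plus strand (Pde6b), chr5:72642703-72643002 on the minus strand (Cnga1), chrX:74127216-74127515 on the plus strand (Opn1mw) and chr6:29380464-29380763 on the minus strand (Opn1sw).
Pde6b: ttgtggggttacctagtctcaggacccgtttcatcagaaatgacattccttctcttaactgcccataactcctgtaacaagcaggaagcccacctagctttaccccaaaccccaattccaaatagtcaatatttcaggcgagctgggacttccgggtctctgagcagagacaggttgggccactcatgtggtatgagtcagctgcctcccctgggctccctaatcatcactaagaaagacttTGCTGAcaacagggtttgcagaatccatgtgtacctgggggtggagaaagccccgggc
Cnga1: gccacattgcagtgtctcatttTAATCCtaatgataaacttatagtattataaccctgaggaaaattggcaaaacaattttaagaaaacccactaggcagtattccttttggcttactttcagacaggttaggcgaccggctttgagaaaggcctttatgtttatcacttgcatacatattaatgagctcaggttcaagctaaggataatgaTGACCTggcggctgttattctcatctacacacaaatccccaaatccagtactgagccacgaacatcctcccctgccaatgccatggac
Opn1mw: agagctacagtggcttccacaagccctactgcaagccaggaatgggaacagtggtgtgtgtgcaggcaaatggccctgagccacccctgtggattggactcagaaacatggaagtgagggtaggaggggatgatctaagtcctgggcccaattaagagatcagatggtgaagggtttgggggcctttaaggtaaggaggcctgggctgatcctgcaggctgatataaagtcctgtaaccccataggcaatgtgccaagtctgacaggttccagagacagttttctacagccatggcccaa
Opn1sw: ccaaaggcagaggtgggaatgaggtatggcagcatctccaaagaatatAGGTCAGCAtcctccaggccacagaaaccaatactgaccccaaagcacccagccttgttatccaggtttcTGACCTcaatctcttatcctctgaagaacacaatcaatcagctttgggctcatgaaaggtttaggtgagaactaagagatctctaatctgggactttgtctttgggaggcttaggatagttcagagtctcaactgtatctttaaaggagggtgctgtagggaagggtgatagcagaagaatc

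Pde6b held TGCTGA on its own strand at positions -8 to -3, counted from the start. Cnga1 held TAATCC at -228 to -223 and AGGTCA, on the opposite strand, at -38 to -33. Opn1sw held AGGTCA at -202 to -197, overlapping TGCTGA on the opposite strand, and a further AGGTCA on the opposite strand at -132 to -127. None of the 4 words was found in the Opn1mw window. Short words like these are common: at least 1 of the 4 stood in 45.5% of all 32851 annotated windows. It stood in 20 of 41 windows (48.8%) of genes at least 2-fold higher with the transgene, and in 42 of 117 windows (35.9%) of genes at least 2-fold lower. The windows belong to 35 of the 48 higher genes and 89 of the 117 lower genes, some with several windows. Such counts describe letters, without a test, and show no binding.

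Signals are given as log2 values, so a difference of 1 is a 2-fold difference. All 8 arrays had medians of 5.86 to 5.89, lower quartiles of 3.98 to 4.04 and maxima of 14.19 to 14.27. Pairs of arrays correlated at 0.991 to 0.995 within Rorb-/-;CrxpNrl, at 0.993 to 0.994 within Rorb-/-, and at 0.985 to 0.991 between the groups. Xist and Y-linked genes marked 1 female and 3 males in each group, whereas 1 P14 +/+;CrxpNrl array carried both. Crx itself, a defining gene of photoreceptors, read 11.84 to 12.03 in Rorb-/-;CrxpNrl mice and 11.96 to 12.18 in Rorb-/- mice. Differences come from 1 limma fit over all 31 arrays and are given ± SE, with p adjusted by Benjamini-Hochberg over 18193 genes. A gene is said to rise or fall at adjusted p under 0.05. The labels name each array a biological replicate of 1 mouse, and the number of arrays limits the precision. In a whole retina, fewer cells of a type and less RNA per cell cannot be told apart.

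Nrl read 11.90, 11.33, 11.29 and 12.28 in Rorb-/-;CrxpNrl mice, against 8.78, 8.84, 10.55 and 10.54 in Rorb-/- mice. The groups did not overlap, and the Rorb-/- mice split into a lower pair (replicates 1 and 2) and a higher pair (replicates 3 and 4). Nrl thus rose by 2.02 ± 0.40 (adjusted p = 0.00135), and the mean of 11.70 ± 0.47 stayed below the 13.32 ± 0.01 of +/+ mice (SD, n = 4 each). Its 1 probe set cannot tell transcripts of the transgene from those of the mouse's own gene. Rorb, the gene both groups are labelled null for, read 9.31, 9.63, 9.04 and 8.48 with the transgene and 9.88, 9.86, 9.95 and 9.58 without it, against 10.97 ± 0.12 in +/+. These levels lie far above the array's lower quartile, and whether the probe sets read the deleted part is not known, so they do not check the genotype. All 3 Rorb probe sets were lower with the transgene, and the one used fell by 0.70 ± 0.19 (adjusted p = 0.0259). That call did not hold without Rorb-/-;CrxpNrl replicate 4 (-0.49, adjusted p = 0.16), nor without 4 other mice.

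Across all genes 48 were at least 2-fold higher with the transgene (0.264% of 18193) and 117 at least 2-fold lower (0.643%), 165 in all (0.907%). With no requirement on size, 373 genes rose (2.05%) and 591 fell (3.25%), 964 in all (5.3%), and the median difference of all genes was 0.02. Of the 165 genes that changed at least 2-fold, 76 had several probe sets, and none of these had a probe set that differed 2-fold the other way. The lists below were described by these counts and their medians, without a test of the list.

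Rod phototransduction genes rose with the transgene. The rod cascade runs from the visual pigment through the G protein transducin and a phosphodiesterase to a channel gated by cyclic GMP. Of 10 measured members 6 rose and none fell, against 2.05% of all genes higher, and the median difference was 2.10. Mean levels of the list were 11.90, 11.24, 11.15 and 11.75 in Rorb-/-;CrxpNrl mice, against 9.07, 9.25, 10.22 and 10.49 in Rorb-/- mice and 12.32 to 12.53 in +/+ mice. Every mouse with the transgene lay above every Rorb-/- mouse and below every +/+ mouse on this mean.

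Pde6b, which encodes a catalytic subunit (beta) of the phosphodiesterase, led the list. It read 12.12, 11.15, 10.39 and 12.10 with the transgene, against 6.95, 6.89, 8.69 and 9.86 without it. The groups stood clear of each other, at 3.34 ± 0.54 (adjusted p = 9.22e-05), or 10.1-fold. Pde6a, which encodes the alpha subunit, read 9.25, 8.72, 8.72 and 9.39 with the transgene, against 6.91, 6.59, 7.60 and 7.68 without it. It rose by 1.82 ± 0.40 (adjusted p = 0.00399). The inhibitory gamma subunit gene, Pde6g, was at 0.24 ± 0.28 (adjusted p = 0.75), with 12.55 to 13.04 against 12.43 to 12.61.

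Both subunits of the rod channel rose. Cnga1 read 10.96, 10.54, 10.44 and 10.77 in Rorb-/-;CrxpNrl mice, against 6.70, 6.84, 8.69 and 8.88 in Rorb-/- mice, a difference of 2.90 ± 0.44 (adjusted p = 3.81e-05). Cngb1 read 10.39, 9.87, 9.81 and 10.45, against 6.73, 7.56, 8.35 and 8.38, a difference of 2.37 ± 0.33 (adjusted p = 1.27e-05). In both genes the mice with the transgene spread less (SD 0.23 and 0.34) than those without it (SD 1.17 and 0.78). Slc24a1, the sodium, calcium and potassium exchanger of rod outer segments, read 11.02, 10.21, 10.16 and 10.92, against 7.03, 7.62, 8.45 and 8.69. It rose by 2.63 ± 0.37 (adjusted p = 1.64e-05), again without overlap.

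Transducin showed an uneven pattern. Its rod alpha subunit gene, Gnat1, read 13.33, 11.80, 12.36 and 13.28 with the transgene and 8.10, 8.83, 11.08 and 11.85 without it. The highest Rorb-/- mouse passed the lowest mouse with the transgene here, and the difference was 2.73 ± 0.51 (adjusted p = 0.000613). Fitted on these 8 arrays alone, Gnat1 no longer passed (adjusted p = 0.0723). The beta subunit gene Gnb1 averaged 11.42 ± 0.59 with the transgene and 10.42 ± 0.66 without it (SD, n = 4 each), missed the threshold (adjusted p = 0.108) and passed as the mean of its probe sets (1.06, adjusted p = 0.02). Gngt1, the gamma subunit gene of rods, was at 0.12 ± 0.26 (adjusted p = 0.884), with 12.19 to 12.57 against 12.21 to 12.30. Sag, rod arrestin, read 13.90 to 14.02 against 13.54 to 13.69, with no overlap, at 0.35 ± 0.17 (adjusted p = 0.3). These levels lie close to the array maxima, where differences are compressed, and Sag passed when these 8 arrays were fitted alone (adjusted p = 0.00234). In Rorb-/- mice the 4 members that did not pass averaged 10.42 or more, and the 6 that rose averaged at most 9.97. Whether these levels bear on which members passed was not tested.

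**Figure D1:**
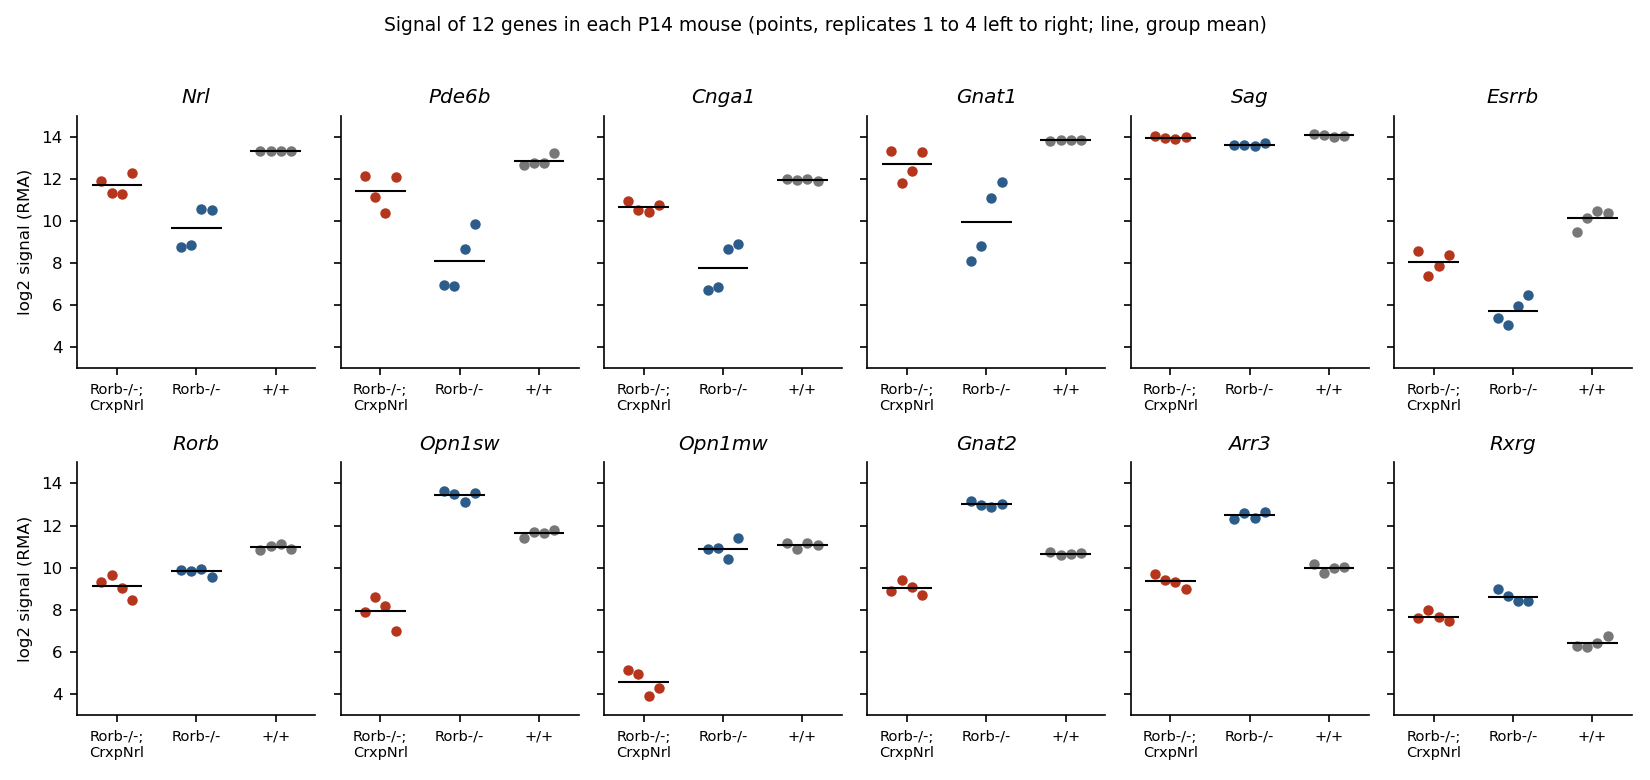
Log2 signal (vertical axis) of 12 genes in each P14 mouse, with Rorb-/-;CrxpNrl (red), Rorb-/- (blue) and +/+ (grey) from left to right; points are mice in replicate order and lines are group means. Nrl, Pde6b and Cnga1 of Rorb-/-;CrxpNrl mice lie between Rorb-/- and +/+ mice. Their Opn1sw, Opn1mw, Gnat2 and Arr3 lie below both, though Arr3 did not pass against +/+ (-0.62, adjusted p = 0.316).

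Cone genes fell without exception. All 14 measured members of the cone list fell, against 3.25% of all genes lower, with a median of -2.04, and in 13 of them the 2 groups did not overlap (5.06% of all genes were lower without overlap). List means were 8.05, 8.14, 7.91 and 7.58 with the transgene, against 10.72, 10.64, 10.43 and 10.60 without it and 8.85 to 8.97 in +/+ mice. On this mean every Rorb-/-;CrxpNrl mouse lay below every +/+ mouse, but single genes differed: against +/+ mice 6 of the 14 were lower (13.3% of all genes), 4 were higher (16.7%), such as Cngb3 and Rxrg, and 4 did not pass.

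The visual pigments of cones fell most. Opn1mw, the middle-wavelength opsin, read 5.14, 4.95, 3.92 and 4.27 in Rorb-/-;CrxpNrl mice, against 10.90, 10.91, 10.41 and 11.40 in Rorb-/- mice. The difference was -6.33 ± 0.25 (adjusted p = 9.17e-17), or 80.7-fold, and is read as a lower bound because the lower group lay near the array's lower quartile. Opn1sw, the short-wavelength opsin, read 7.91, 8.59, 8.19 and 7.0 with the transgene, against 13.66, 13.48, 13.13 and 13.52 without it. It fell by 5.53 ± 0.56 (adjusted p = 4.19e-08), a lower bound as well, since the Rorb-/- mice lay near the array maxima. Relative to +/+ mice, which read 11.08 ± 0.13 for Opn1mw and 11.62 ± 0.15 for Opn1sw (SD), Rorb-/-;CrxpNrl mice were lower by 6.51 and 3.70 on the log2 scale (adjusted p = 1.68e-17 and 6.12e-06).

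The cone cascade followed. Gnat2, the cone transducin alpha subunit, read 8.87, 9.41, 9.09 and 8.69 with the transgene, against 13.17, 12.96, 12.88 and 13.04 without it, and fell by 4.00 ± 0.19 (adjusted p = 6.7e-15). Arr3, cone arrestin, read 9.69, 9.42, 9.30 and 9.0, against 12.32, 12.61, 12.36 and 12.63, and fell by 3.13 ± 0.43 (adjusted p = 1.09e-05). Both groups were tight in these genes, and no mouse of one came within 2 log2 units of the other. The cone phosphodiesterase subunits Pde6c (-4.21 ± 0.27) and Pde6h (-3.63 ± 0.49), the potassium channel subunit Kcne2 (-2.68 ± 0.10), the transducin subunits Gngt2 (-1.39 ± 0.21) and Gnb3 (-1.23 ± 0.08) and the channel subunit Cngb3 (-1.34 ± 0.22) fell too. Cngb3 ended above wild type, at 9.44 to 9.97 with the transgene, against 10.77 to 11.18 in Rorb-/- and 7.88 ± 0.16 in +/+ (SD). Slc24a2, the cone exchanger, was lower by 0.88 ± 0.23 (adjusted p = 0.0178), with 7.12 to 7.29 against 6.95 to 8.89. It was the 1 cone gene whose groups overlapped, and its call was lost without Rorb-/- replicate 4 (-0.61, adjusted p = 0.116) or any of 3 other mice.

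**Figure D2:**
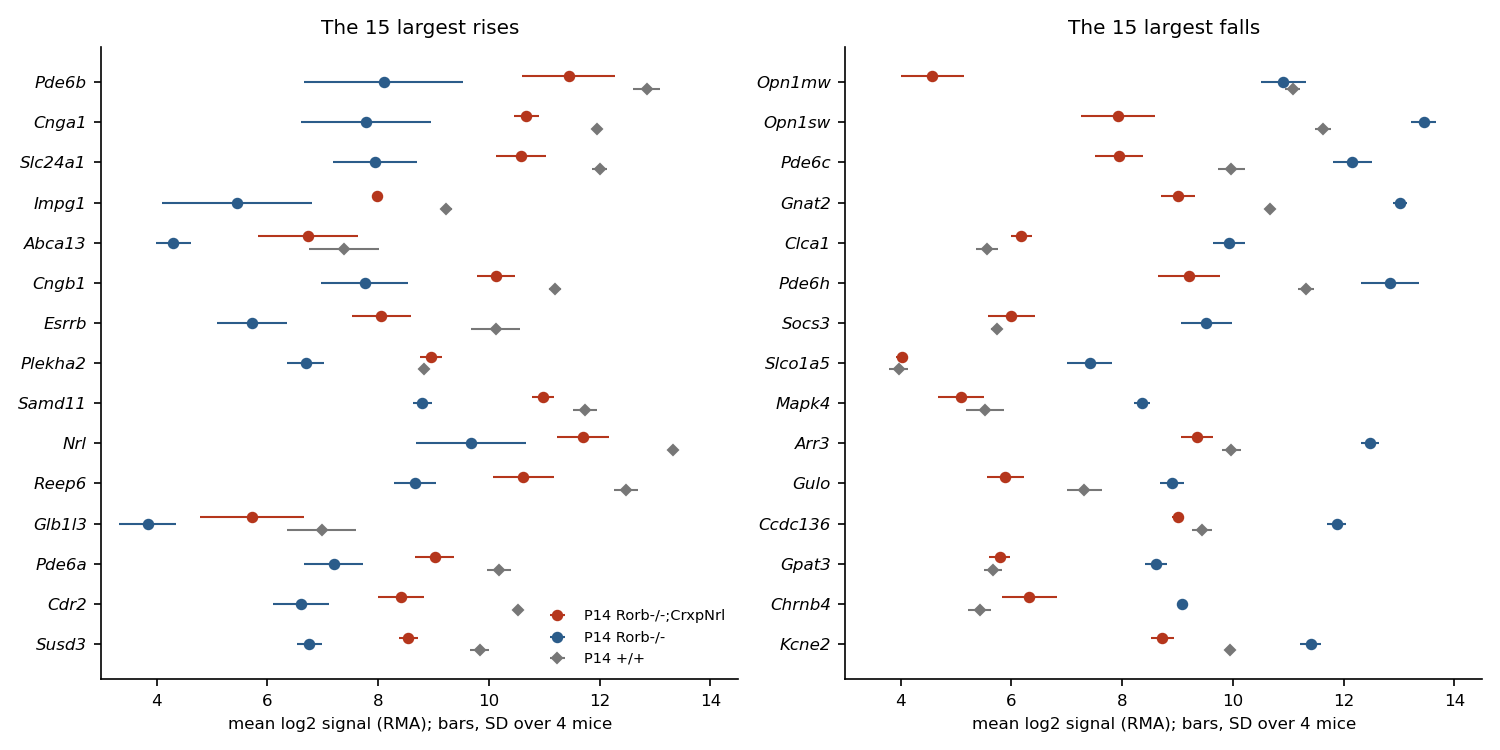
Mean log2 signal ± SD over 4 mice (horizontal axis) of the 15 largest rises (left) and 15 largest falls (right) whose groups did not overlap, in Rorb-/-;CrxpNrl (red), Rorb-/- (blue) and +/+ (grey diamonds). Pde6b leads the rises at 3.34 and Opn1mw the falls at -6.33.

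Among 17 transcription factor genes of photoreceptors, 1 rose and 3 fell, against 2.05% of all genes higher and 3.25% lower. Esrrb, an orphan nuclear receptor gene expressed in rods, read 8.58, 7.41, 7.84 and 8.40 with the transgene, against 5.38, 5.05, 5.97 and 6.48 without it. It rose by 2.34 ± 0.40 (adjusted p = 0.000262) and stayed under the 10.12 ± 0.44 of +/+ mice (SD). All 3 of its probe sets were higher, by 1.42 as their mean. The 3 that fell belong to cones: Rxrg (-0.94 ± 0.13) and Thrb (-0.78 ± 0.19), nuclear receptors that pattern cone opsins, and Sall3 (-1.41 ± 0.12), a zinc finger gene. All 3 were already counted in the cone list above. Sall3 came to 5.89 to 6.17 with the transgene, against 7.37 to 7.51 without it and 5.87 ± 0.14 in +/+, while Rxrg, at 7.45 to 7.99, stayed above the 6.43 ± 0.23 of +/+ mice (SD). The Thrb call was lost in a fit of the 8 arrays alone (adjusted p = 0.0629) and without Rorb-/- replicate 1 (-0.60, adjusted p = 0.0698) or Rorb-/-;CrxpNrl replicate 4 (adjusted p = 0.051). Factors upstream of both fates did not pass, with Crx at -0.10 ± 0.16 (adjusted p = 0.83) and Otx2 at 0.22 ± 0.09 (adjusted p = 0.186). Samd7, a partner of photoreceptor repressor complexes, was at 1.11 ± 0.37 (adjusted p = 0.0861), and Mef2c was at -0.02 ± 0.33 (adjusted p = 0.988).

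Most genes of the outer segment and connecting cilium did not pass. Of 19 measured members 4 rose, against 2.05% of all genes, and none fell, with a median of 0.03. Impg1, a proteoglycan of the matrix around photoreceptors, read 8.05, 7.97, 7.84 and 8.07 with the transgene, against 3.92, 4.99, 5.74 and 7.15 without it. Its narrow range with the transgene contrasts with 4 well-spread Rorb-/- mice, and the difference was 2.53 ± 0.47 (adjusted p = 0.000589). Reep6, an endoplasmic reticulum protein of rods, read 10.95, 10.12, 10.20 and 11.23, against 8.14, 8.60, 8.97 and 8.93, and rose by 1.96 ± 0.29 (adjusted p = 3.36e-05). Rom1, a disc membrane protein, rose by 1.36 ± 0.29 (adjusted p = 0.00272). Rp1, a microtubule protein of the axoneme, was higher by 1.19 ± 0.35 (adjusted p = 0.0389), a call lost when any mouse but Rorb-/- replicate 3 was left out (adjusted p up to 0.125). Prph2, the partner of Rom1, showed no group pattern: it read 7.76, 5.12, 5.34 and 4.47 with the transgene and 5.39, 4.94, 11.04 and 5.09 without it (-0.94 ± 1.29, adjusted p = 0.792).

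Cascade genes that rods and cones share stayed closer to 0, with a median of 0.11. Of 9 measured, 1 fell (3.25% of all genes) and none rose. Guca1a, which activates the guanylate cyclase that restores cyclic GMP after light, read 11.85, 10.91, 10.82 and 10.83 with the transgene, against 13.43, 13.20, 12.92 and 13.04 without it and 11.86 to 12.19 in +/+. It fell by 2.04 ± 0.28 (adjusted p = 1.04e-05). Recoverin, Rcvrn, read 13.18 to 13.47 against 12.91 to 13.13 (0.31 ± 0.27, adjusted p = 0.624). Of 12 retinoid cycle genes Dhrs3, a retinal reductase of photoreceptors, rose alone (2.05% of all genes rose). It read 8.29, 8.10, 8.03 and 8.24 with the transgene, against 6.83, 6.91, 7.10 and 7.32 without it, and rose by 1.13 ± 0.11 (adjusted p = 1.25e-08). In the ribbon synapse list 1 of 17 genes passed, the complexin gene Cplx3 (-0.33 ± 0.08, adjusted p = 0.0106). That share is close to the 5.3% of all genes that passed.

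**Figure D3:**
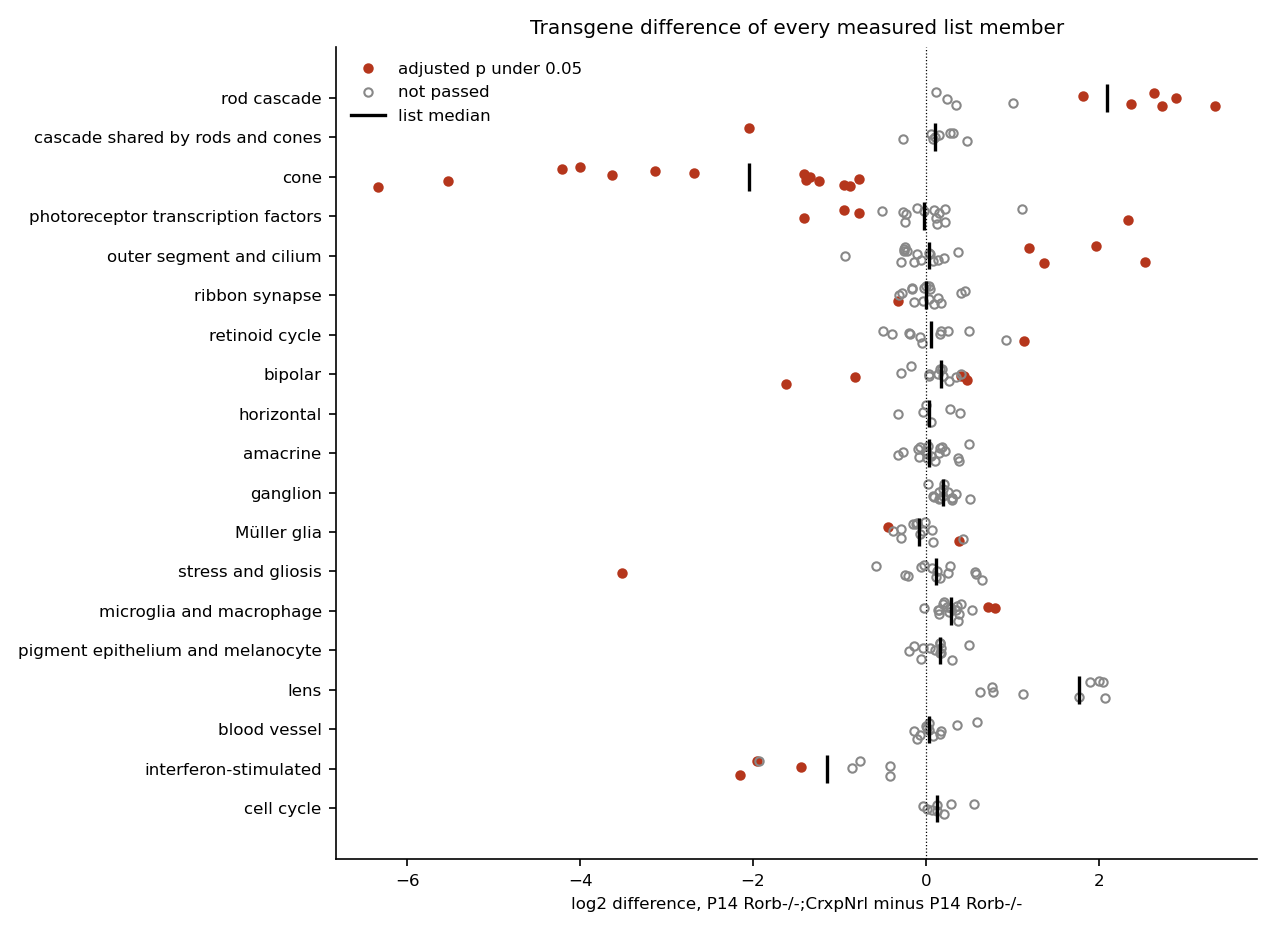
Log2 difference, Rorb-/-;CrxpNrl minus Rorb-/- at P14 (horizontal axis), of every measured member of 19 gene lists (rows); filled points passed adjusted p 0.05 and bars are list medians. The rod cascade has its median at 2.10 and the cone list at -2.04, while the lens median of 1.77 rests on genes none of which passed.

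Further rises reached beyond the lists. Plekha2, a pleckstrin homology domain protein, read 8.86, 9.20, 8.73 and 9.0 with the transgene, against 6.37, 6.47, 6.82 and 7.10 without it, and rose by 2.26 ± 0.23 (adjusted p = 3.94e-08). Relative to +/+ mice (8.83 ± 0.08, SD) it was then at 0.12 ± 0.23 (adjusted p = 0.752). Samd11, a nuclear protein of photoreceptors, read 11.04, 10.94, 10.74 and 11.21, against 8.75, 8.58, 8.87 and 8.98, and rose by 2.19 ± 0.29 (adjusted p = 4.23e-06), or by 1.34 as the mean of its probe sets. Abca13, a lipid transporter of the ABC family (2.44 ± 0.53), Cdr2 (1.81 ± 0.29) and Susd3 (1.79 ± 0.29) followed. Glb1l3 was higher by 1.88 ± 0.51 (adjusted p = 0.0239), a call lost when any of 5 mice was left out (adjusted p up to 0.0948).

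Several genes outside the cone list fell as steeply as cone genes. Clca1, a regulator of calcium-activated chloride channels, read 6.0, 6.45, 6.14 and 6.12 with the transgene, against 10.12, 9.58, 9.81 and 10.19 without it, and fell by 3.75 ± 0.22 (adjusted p = 6.91e-13). Socs3, an inhibitor of cytokine signalling, read 5.92, 6.50, 6.09 and 5.48, against 10, 9.80, 9.23 and 9.03, and fell by 3.52 ± 0.24 (adjusted p = 1.65e-11), with all 3 probe sets lower. Slco1a5, an organic anion transporter, read 4.12, 4.09, 3.92 and 3.94, against 7.44, 7.78, 6.85 and 7.60, and fell by 3.40 ± 0.14 (adjusted p = 1.05e-16), a lower bound. Relative to +/+ mice, Slco1a5 was then at 0.06 ± 0.14 (adjusted p = 0.814) and Socs3 at 0.27 ± 0.24 (adjusted p = 0.461). As the mean of their probe sets, Clca1 fell by 1.98 and Slco1a5 by 1.90, and without probe sets of shared sequence Socs3 fell by 2.28.

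Mapk4, an atypical MAP kinase (-3.27 ± 0.20), Gulo, an enzyme of vitamin C synthesis (-3.02 ± 0.19), Ccdc136 (-2.87 ± 0.09), Gpat3, an acyltransferase of glycerolipid synthesis (-2.82 ± 0.17), and Chrnb4, a nicotinic receptor subunit (-2.75 ± 0.19), completed the 15 largest falls. Ccdc136 was the tightest of them, at 9.0, 9.05, 9.09 and 8.87 with the transgene, against 12.13, 11.77, 11.75 and 11.86 without it (adjusted p = 9.9e-19). Gpat3 ended at 5.58 to 6.04, against 8.34 to 8.81 in Rorb-/- and 5.67 ± 0.17 in +/+ (SD). Gulo fell past +/+ mice, to 5.50 to 6.19 with the transgene, against 8.63 to 9.11 in Rorb-/- and 7.32 ± 0.31 in +/+ (SD).

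Among markers of the other retinal neurons, calls were made for bipolar cells. Bipolar cells, which carry signals from photoreceptors to the inner retina, had 5 of 16 genes past the test (5.3% of all genes). Cabp5, a calcium-binding protein of bipolar cells, read 10.43, 10.08, 10.28 and 10.04 with the transgene, against 12.16, 11.77, 11.67 and 11.70 without it and 10.40 ± 0.13 in +/+ (SD). It fell by 1.62 ± 0.12 (adjusted p = 1.33e-10), and Car8, a carbonic anhydrase-related protein, fell by 0.82 ± 0.17 (adjusted p = 0.00198). Nyx (0.48 ± 0.12), Cabp2 (0.44 ± 0.11) and Prkca (0.40 ± 0.11) were higher, of which the calls of Nyx and Prkca were lost without Rorb-/- replicate 1 (adjusted p = 0.0752 and 0.0818) and in further repeats. Of 18 amacrine, 6 horizontal and 15 ganglion cell genes none passed, with medians of 0.04, 0.03 and 0.20. Relative to +/+ mice, 14 of the 18 amacrine genes were lower in Rorb-/-;CrxpNrl mice (13.3% of all genes) and 1 was higher. Gad1, a GABA-synthesising enzyme of amacrine cells, read 5.31 to 5.94 in Rorb-/-;CrxpNrl mice and 4.54 to 5.75 in Rorb-/- mice, against 11.34 ± 0.06 in +/+ (SD). Gad2, another such enzyme and the 1 higher gene, read 8.05 to 8.25 and 7.87 to 8.33, against 7.87 ± 0.06 in +/+ (SD). Calb1, a marker of horizontal cells, read 7.38 to 8.26 and 7.59 to 8.08, against 10.65 ± 0.10 in +/+ (SD).

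Few glial and immune markers passed the test, which 2.05% of all genes passed as higher and 3.25% as lower. Of 14 Müller glia genes Vim was higher (0.39 ± 0.11, adjusted p = 0.0368) and Abca8a fell by 0.44 ± 0.07 (adjusted p = 6.97e-05). The Vim call was lost as the mean of its probe sets (0.24, adjusted p = 0.289) and in 6 of the 8 repeats that left out a mouse. Gfap, the filament protein of reactive glia, read 7.40 to 7.89 with the transgene against 6.84 to 7.13 without it, and did not pass (0.65 ± 0.23, adjusted p = 0.115). Of 15 stress and gliosis genes Socs3 alone passed, with the fall given above. Of 17 microglia and macrophage genes 2 passed, both higher (2.05% of all genes), and the median was 0.29. Tyrobp, a signalling adaptor of microglia, read 7.60, 8.33, 8.43 and 7.95, against 7.59, 7.40, 7.36 and 7.07 (0.72 ± 0.14, adjusted p = 0.00147). Lysozyme, Lyz2, was at 0.80 ± 0.22 (adjusted p = 0.0248), a call lost without Rorb-/- replicate 4 (0.55, adjusted p = 0.15) and 2 other mice.

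Transcripts from outside the neural retina were uneven between mice. Crystallin and other lens genes averaged 7.95, 5.89, 6.60 and 10.7 in Rorb-/-;CrxpNrl mice, against 6.67, 7.45, 5.59 and 5.61 in Rorb-/- mice. None of the 9 passed, and Rorb-/-;CrxpNrl replicate 4 stood highest. The part of these transcripts in the results was tested by 1 alternative, with the lens mean as a covariate, which left 162 changed genes, 155 of them among the 165. None of 13 pigment epithelium and melanocyte genes, 12 blood vessel genes, 2 red blood cell genes or 8 cell cycle genes passed. Interferon-stimulated genes were lower with the transgene in 3 of 8 cases (3.25% of all genes were lower), at -2.15 ± 0.53 (Ifit1), -1.96 ± 0.50 (Rtp4) and -1.44 ± 0.36 (Ifit3). Their list means were 5.55, 6.67, 5.68 and 5.40 with the transgene, against 6.72, 8.29, 5.37 and 7.89 without it, so that Rorb-/- replicates 2 and 4 stood highest and replicate 3 lowest. All 3 calls were lost in a fit of the 8 arrays alone (adjusted p = 0.213 to 0.219) and without either Rorb-/- replicate 2 or replicate 4. The order of the mice on this list differs from their order on the rod list.

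**Figure D4:**
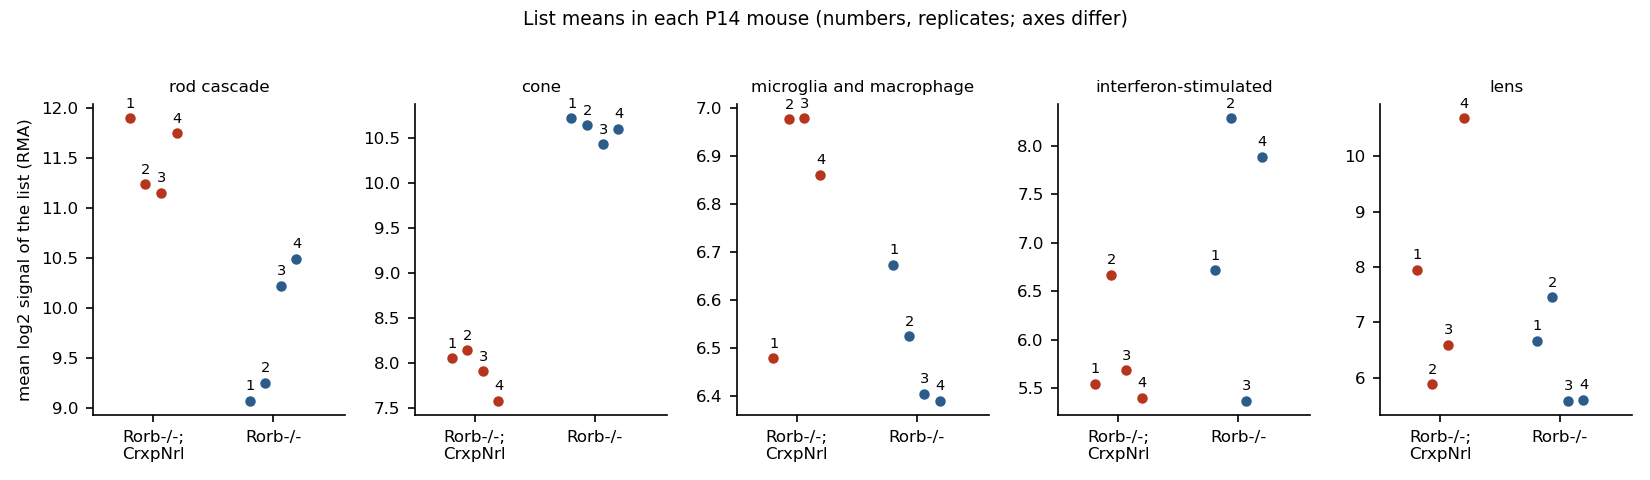
Mean log2 signal (vertical axes, which differ in range) of 5 gene lists in each P14 Rorb-/-;CrxpNrl (red) and Rorb-/- (blue) mouse, numbered by replicate. The rod and cone lists separate the groups, whereas the microglia, interferon and lens lists overlap and single mice stand out, such as lens in Rorb-/-;CrxpNrl replicate 4 at 10.7.

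At P28 other mice of the same 2 genotypes gave a comparison that shares no sample with the one at P14. There 47 genes were at least 2-fold higher (0.258%) and 211 lower (1.16%) with the transgene. Of the genes lower at P14, 87 were also lower at P28, which is 74.4% of the P14 list and 41.2% of the P28 list. Of those higher at P14, 18 were also higher at P28, or 37.5% and 38.3% of the lists, and none changed in opposite directions. Cone genes fell in 13 of 14 cases at P28 (background 7.47%), with Opn1mw at -7.37 ± 0.25 and Opn1sw at -6.71 ± 0.56. Of 10 rod cascade genes 4 were higher and 2 lower (background 11.7% and 7.47%). Pde6b was at 2.18 ± 0.54, Cnga1 at 1.85 ± 0.44, Gngt1 at -0.96 ± 0.26 and Pde6g at -0.86 ± 0.28. Changes at P28 reached other lists too, against the same backgrounds. Of 19 outer segment and cilium genes 11 were lower and 1 higher, and of 15 ganglion cell genes 13 were higher and 1 lower. Means of the outer segment list overlapped, at 8.28 to 10.40 in P28 Rorb-/-;CrxpNrl mice against 9.99 to 10.29 in P28 Rorb-/- mice. Gngt1 read 12.54, 11.63, 10.07 and 10.72 with the transgene, against 12.09 to 12.31 without it, so replicates 3 and 4 lay lowest. Rod list means ran from 9.56 to 11.93 in P28 Rorb-/-;CrxpNrl mice, against 9.97 to 10.26 in P28 Rorb-/- mice, so the older mice with the transgene spread more widely. Pde6b read 12.16, 12, 9.14 and 9.76 in P28 Rorb-/-;CrxpNrl mice, against 8.34 to 8.77, and replicates 3 and 4 lay lowest.

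The difference between the ages was itself tested, as the P28 effect minus the P14 effect. At least a 2-fold difference was found for 24 genes more positive at P28 (0.132%) and 41 more negative (0.225%), counts that moved by over 1.5 times in several repeats. None of the 10 rod cascade genes passed, while 4 of 18 amacrine cell genes were more positive at P28 (background 0.813%). In the cone list 3 of 14 were more negative at P28 (background 0.671%), namely Kcne2 (-1.05 ± 0.14, adjusted p = 0.000276), Cngb3 (-1.26, adjusted p = 0.0397) and Gngt2 (-1.17, adjusted p = 0.0443). The Kcne2 call held whichever mouse was left out, whereas that of Cngb3 was lost in 10 and that of Gngt2 in 12 of 16 repeats (adjusted p up to 0.117 and 0.137). Esrrb, which rose at P14, was at 0.11 ± 0.40 at P28, with 8.92, 8.56, 6.49 and 6.69 in Rorb-/-;CrxpNrl mice against 7.47, 6.70, 8.19 and 7.87 in Rorb-/- mice. Replicates 1 and 2 with the transgene thus lay above every Rorb-/- mouse and replicates 3 and 4 below. The difference of the effects was -2.23 ± 0.57 (adjusted p = 0.0427). That call was lost in 10 of 16 repeats without 1 mouse (adjusted p up to 0.132). Crx (-1.01, adjusted p = 0.0278) and Prdm1 (-1.59, adjusted p = 0.0185) also differed. At P28 Crx read 11.52, 11.58, 10.28 and 10.54 with the transgene, against 12.06 to 12.13 without it, and Prdm1 read 7.48, 7.40, 6.02 and 5.97, against 8.21 to 8.79. Replicates 3 and 4 with the transgene were again the lowest, and without replicate 4 both calls were lost (Crx -0.87, adjusted p = 0.0771; Prdm1 -1.34, adjusted p = 0.0554), as they were in 2 further repeats each. Tph1, an enzyme of serotonin synthesis, showed the strongest difference, -3.00 ± 0.32 (adjusted p = 7.89e-06). At P14 its range was 6.03 to 6.11 in Rorb-/-;CrxpNrl mice and 6.25 to 7.06 in Rorb-/- mice (-0.58 ± 0.23, adjusted p = 0.158). At P28 it averaged 4.23 ± 0.28 in Rorb-/-;CrxpNrl mice and 7.81 ± 0.62 in Rorb-/- mice (SD, n = 4 each).

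**Figure D5:**
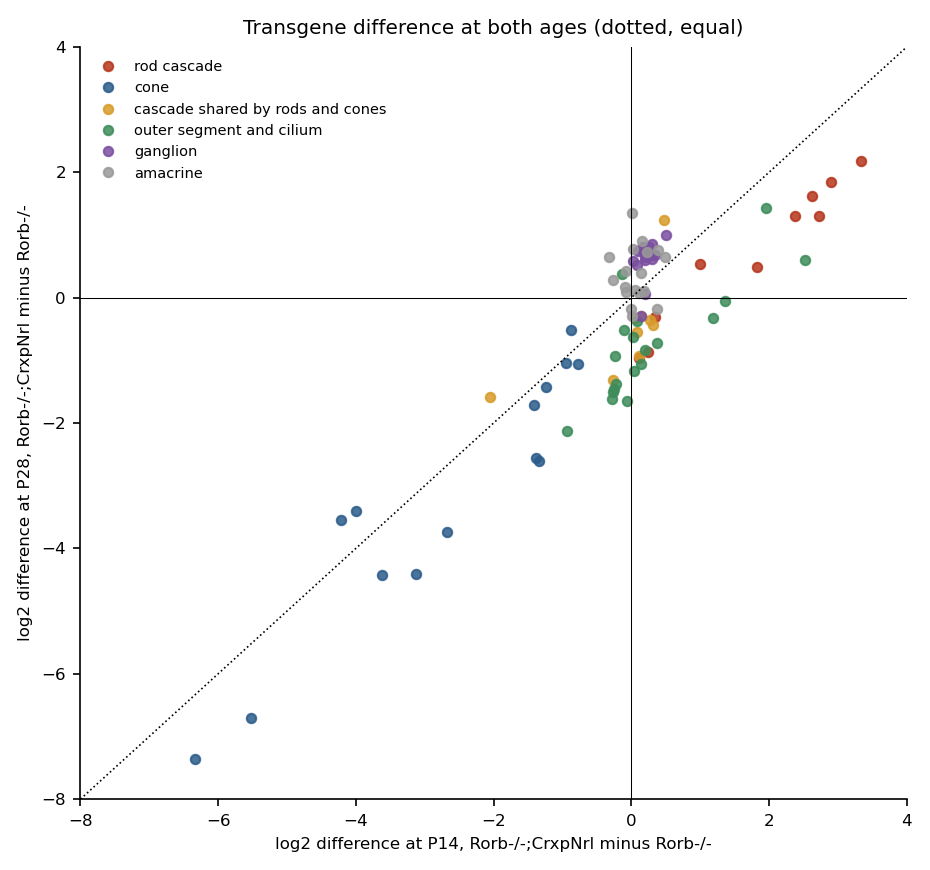
Log2 difference, Rorb-/-;CrxpNrl minus Rorb-/-, at P14 (horizontal axis) and at P28 (vertical axis) for members of 6 gene lists (colours), each point being 1 gene; the dotted line marks equal differences. All 10 rod cascade genes lie below the line, as Pde6b does at 3.34 and 2.18, and cone genes lie on both sides of it, with Opn1mw lowest at -6.33 and -7.37.

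In +/+ retinas at P14, where Rorb is intact, the same transgene was measured in 4 mice against 4 without it, again with no shared sample. No gene was at least 2-fold higher and 15 were lower (0.0824%), of which 13 also fell in Rorb-/- retinas (86.7% of the 15 and 11.1% of the 117). Opn1mw averaged 5.10 ± 0.75 with the transgene and 11.08 ± 0.13 without it in +/+, against 4.57 ± 0.57 and 10.91 ± 0.41 in the Rorb-/- retinas (SD, n = 4 each). Cone genes fell in 8 of 14 cases (background 0.11%) and none of 10 rod cascade genes passed (background 0.0165% higher). The difference of the 2 effects, Rorb-/- minus +/+, was at least 2-fold and positive for 26 genes (0.143%) and negative for 68 (0.374%). Of the rod cascade 4 of 10 were more positive in Rorb-/- (background 0.396%): Pde6b (2.99, adjusted p = 0.0372), Cnga1 (2.86, adjusted p = 0.0102), Slc24a1 (2.52, adjusted p = 0.00769) and Cngb1 (2.30, adjusted p = 0.00603). The Pde6b call was lost in 13 of the 16 repeats without 1 mouse, at adjusted p up to 0.113. In +/+ mice these genes averaged 11.2 to 12.85, and the cause of the difference was not tested. The falls of Slco1a5 (-3.32, adjusted p = 3.17e-12), Mapk4 (-2.84, adjusted p = 1.24e-07), Socs3 (-2.61, adjusted p = 1.93e-05) and Ccdc136 (-2.52, adjusted p = 2.97e-13) were larger in Rorb-/- than in +/+. Slco1a5 already lay near the low end of the arrays in +/+ mice, so a fall there could hardly be measured. Ccdc136 read 9.44 ± 0.18 in +/+ mice (SD) and was at -0.35 with the transgene there (adjusted p = 0.208). Of 14 cone genes 3 were more negative in Rorb-/- (background 1.08%) and none more positive. The other 11 did not pass, such as Arr3 (2.06 ± 0.61, adjusted p = 0.107). For Opn1mw the effects differed by -0.35 (adjusted p = 0.838) and for Opn1sw by 0.13 (adjusted p = 0.984). With the transgene Opn1mw lay near the low end of the arrays in both genotypes, so its 2 effects cannot be called equal.

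Against +/+ mice, 5 of 10 rod cascade genes were lower in Rorb-/-;CrxpNrl mice (background 13.3%), none was higher and 5 did not pass, Gnat1 among them (-1.15, adjusted p = 0.0893). Nrl was 1.62 lower than in +/+ on the log2 scale (adjusted p = 0.00233), Esrrb 2.06 lower (adjusted p = 0.000199), Cdr2 2.11 lower (adjusted p = 1.22e-06) and Reep6 1.85 lower (adjusted p = 1.21e-05). Cnga1 stood 1.28 lower (adjusted p = 0.0253) and Pde6b 1.41 lower (adjusted p = 0.047), and both calls were lost when certain mice were left out, at -1.06 without Rorb-/-;CrxpNrl replicate 3 for Pde6b (adjusted p = 0.185). Across all genes 3046 were higher (16.7%) and 2417 lower (13.3%) in Rorb-/-;CrxpNrl than in +/+ mice. This comparison shares the Rorb-/-;CrxpNrl mice with the one above, so the values only stand side by side.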

How the data were processed

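Total RNA of both retinas of 1 mouse was labelled and hybridised to 1 array per sample, per the labels' protocols. The deposited values are log2 signals per probe set, produced with RMA according to the submitters' processing notes, the version of which is not given in the sources used here. They were used as deposited. Of 45101 probe sets 34958 carried 1 gene symbol in the platform annotation, 932 several and 9211 none. Without the control probe sets 34945 were used. The probe set with the highest mean stood for each of 18193 genes. A linear model in limma covered all 31 arrays, each group having its own mean, and used a trend in the prior variance. Genes were called at Benjamini-Hochberg adjusted p under 0.05 and counted as changed at 2-fold or more. The genes, gene lists and tests were chosen with earlier results of these data known.

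Named are Nrl and Rorb, the 15 largest rises and falls without overlap between the groups (without sex-linked genes and provisional symbols), list members that passed, all members of the rod, cone and transcription factor lists, and the 5 largest differences each way of the 2 interactions, or fewer in that order. Prph2, Rcvrn, Gad1, Gad2, Calb1 and Gfap were named after their values were seen. Promoters come from RefSeq (GRCm38.p6). Alternatives were median shift, quantile normalization, other probe set rules, a filter on dim genes, no fold requirement, no trend, array weights, a sex-linked covariate, a replicate block, only the compared groups, and each mouse left out. A lens covariate was added after seeing the data. The fit was tested on simulated data. Used were R 4.3.3, limma 3.58.1, data.table (1.17.8), Python 3.11.15, pandas 2.3.3, numpy 2.4.6 and matplotlib 3.10.9. Some members of the lists are not analysed here.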

Additional observations from a re-analysis of the deposited data

Results flagged for a closer look

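Over 162 pairs of a gene and a P14 group, 9 single values stood apart from those of the other 3 mice by Dixon's criterion. Chance passes it in about 5% of groups, so about as many were flagged as chance gives. In Rorb-/-;CrxpNrl these were Kcne2 in replicate 4 (8.41, the others 8.78 to 8.85), Guca1a in replicate 1 (11.85, the others 10.82 to 10.91), Nr1d1, a clock repressor, in replicate 2 (6.03, the others 7.02 to 7.16), Rp1 in replicate 3 (11.24, the others 11.51 to 11.55), Pygm, a glycogen phosphorylase, in replicate 2 (8.12, the others 8.53 to 8.62) and Hspb6, a small heat shock protein, in replicate 1 (8.91, the others 8.29 to 8.37). In Rorb-/- they were Prdm1 in replicate 2 (8.30, the others 8.77 to 8.81), Tbx2 in replicate 3 (8.79, the others at most 8.54) and Rom1 in replicate 4 (11.18, the others 10.37 to 10.43).

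The transgene effect in Rorb-/- retinas differed between the ages, P28 minus P14, for the following genes. More positive at P28 were Inhbb, an activin subunit (2.01 ± 0.29, adjusted p = 0.000536), Ifi44l, an interferon-stimulated gene (1.91 ± 0.41, adjusted p = 0.0181), somatostatin, Sst (1.38 ± 0.31, adjusted p = 0.0231), neuropeptide Y, Npy (1.34 ± 0.25, adjusted p = 0.00563), and Rasgrf1, a Ras exchange factor (1.32 ± 0.24, adjusted p = 0.00484). Inhbb fell at P14, to 5.79 to 6.43 with the transgene, against 7.17 to 8.25 without it (-1.74 ± 0.20). More negative at P28 were Tph1 (-3.00 ± 0.32, adjusted p = 7.89e-06), the proton channel gene Otop3 (-2.52 ± 0.44, adjusted p = 0.00345), Crxos, the transcript opposite Crx (-2.36 ± 0.37, adjusted p = 0.00111), Myocd, a transcriptional coactivator of muscle (-2.33 ± 0.37, adjusted p = 0.00111), Esrrb (-2.23 ± 0.57, adjusted p = 0.0427), Prdm1 (-1.59 ± 0.34, adjusted p = 0.0185), Cngb3 (-1.26 ± 0.32, adjusted p = 0.0397), Gngt2 (-1.17 ± 0.30, adjusted p = 0.0443), Kcne2 (-1.05 ± 0.14, adjusted p = 0.000276) and Crx (-1.01 ± 0.23, adjusted p = 0.0278). Other members of the lists, such as Cabp5 (0.74, adjusted p = 0.0311), passed this test too.

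The effect also differed between Rorb-/- and +/+ retinas at P14. It was more positive in Rorb-/- for Pde6b (2.99 ± 0.76), Cnga1 (2.86 ± 0.62), Slc24a1 (2.52 ± 0.53), Samd11 (2.40 ± 0.40), Cngb1 (2.30 ± 0.47), Plekha2 (2.03 ± 0.32), Susd3 (1.81 ± 0.41), Reep6 (1.74 ± 0.41) and Cdr2 (1.61 ± 0.41), with adjusted p between 0.000278 and 0.0372. It was more negative for Slco1a5 (-3.32 ± 0.20), Mapk4 (-2.84 ± 0.28), Socs3 (-2.61 ± 0.34), Ccdc136 (-2.52 ± 0.13), Gulo (-2.43 ± 0.27), Chrnb4 (-2.05 ± 0.27), Clca1 (-1.92 ± 0.31) and Gpat3 (-1.12 ± 0.25), with adjusted p of at most 0.0129. Slco1a5 already lay near the low end of the arrays in +/+ mice, as given above.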

How the results depend on the processing

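No named result changed sign under an alternative where either value passed adjusted p 0.05. Results that did not pass could change sign, as Mef2c did (-0.19 to 0.20). Of 136 gene results 42 had an alternative that moved them across adjusted p 0.05. The number of genes at least 2-fold higher was 44 to 54 and lower 104 to 145 when 1 mouse was left out (48 and 117 with all), and 373 and 591 with no fold requirement. Nrl stayed between 1.72 and 2.31 without 1 mouse. Rorb was at -0.70 (adjusted p = 0.094) in a fit of the 8 arrays alone and between -0.87 and -0.49 without 1 mouse, where 5 of 8 repeats missed the threshold. Effects more positive at P28 numbered 24, against 14 without the dimmest 40% of genes, 148 with no fold requirement, 64 with array weights, 5 with the compared arrays fitted alone, and 12 to 57 without 1 mouse. Effects more negative at P28 numbered 41, against 27 with the mean of probe sets, 122, 167 and 4 for the same 3 changes, and 16 to 152 without 1 mouse. Effects more positive in Rorb-/- than in +/+ numbered 26, against 72 with no fold requirement, 40 with the compared arrays fitted alone, and 21 to 33 without 1 mouse. Those more negative numbered 68, against 196 with no fold requirement and 63 to 91 without 1 mouse. Mice of the 2 groups with equal replicate numbers correlated at 0.116, 0.107, 0.0943 and -0.0188, and those with unequal numbers at -0.137 to 0.118. Whether equal numbers mark a pairing of the mice is not known, and these correlations were not tested. With the replicate block 173 genes changed, including all 165. Signals near the array maxima or the lower quartile limit the size of differences, and the causes of these shifts were not tested.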

Other observations

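A few genes of energy metabolism and development, chosen after their values were seen, separated the P14 groups. Hk2, the hexokinase that starts glycolysis, read 8.72, 7.94, 7.92 and 8.60 in Rorb-/-;CrxpNrl mice, against 10.52, 10.35, 10.35 and 10.62 in Rorb-/- mice and 10.25 ± 0.54 in +/+ (SD). It fell by 2.16 ± 0.32 (adjusted p = 3.08e-05), to below the level of both other groups. Pygm, which breaks down glycogen, read 8.62, 8.12, 8.53 and 8.56, against 10.28, 10.04, 10.12 and 10.44, and fell by 1.76 ± 0.13 (adjusted p = 4.48e-11). Ppargc1b, a coactivator of mitochondrial genes, read 10.23, 10.28, 9.96 and 10.17, against 8.83, 9.0, 8.92 and 8.93, and rose by 1.24 ± 0.15 (adjusted p = 1.05e-06). No mouse of one group entered the range of the other in these genes.

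Neurog2, a proneural factor of retinal progenitors, read 5.72, 6.99, 7.0 and 6.74 with the transgene, against 4.94, 4.71, 5.51 and 4.77 without it, and rose by 1.63 ± 0.21 (adjusted p = 4.9e-06). At P28 it was at 0.10 ± 0.21 (adjusted p = 0.824). Eya1, a developmental phosphatase and coactivator, fell by 2.5 ± 0.16 (adjusted p = 5.69e-12), to 6.21 ± 0.24 with the transgene, against 8.72 ± 0.34 without it and 5.64 ± 0.06 in +/+ (SD, n = 4 each). Hspb6 averaged 8.48 ± 0.29 with the transgene, against 10.64 ± 0.20 without it and 10.49 ± 0.14 in +/+ (SD, n = 4 each). It fell by 2.17 ± 0.14 (adjusted p = 3.99e-12), so that only the mice with the transgene in a Rorb-/- retina were low, since P14 +/+;CrxpNrl mice read 10.43 ± 0.09 (SD). Cckbr, a cholecystokinin receptor, fell by 1.68 ± 0.24 (adjusted p = 2.39e-05) and was at -1.80 with the transgene in +/+ retinas (adjusted p = 8.72e-05).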
